A study of Mus musculus with 2 samples.

Results

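The inguinal fat pad (iWAT), a white depot under the skin, was profiled by single-nucleus RNA sequencing, in which each captured transcript molecule carries a unique molecular identifier (UMI) and each nucleus a barcode. The adipocytes described here are nuclei that held a transcript of a thermogenic gene. They were selected on their own measured UMIs: at least 500 detected genes, at most 5% mitochondrial UMIs, a UMI of at least 4 of the 6 adipocyte genes Plin1, Plin4, Adipoq, Cidec, Pparg and Lipe, and at least 1 UMI of Ucp1, Cidea or Ppargc1a. This gave 377 nuclei of 6593 kept barcodes and of 1495 adipocyte barcodes, which are called thermogenic-transcript nuclei below. The other 1118 adipocyte barcodes had no UMI of the 3 genes and are called transcript-negative nuclei.

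There was 1 library labelled WT and 1 labelled KO, each from the pooled iWAT of 3 male C57BL/6 mice fed a Western diet for 4 weeks. Mice of the WT group were Lexis-floxed and lacked Cre (Lexis-AdWT). Mice of the KO group carried the same floxed allele with Adipoq-cre (Lexis-AdKO), which removes the long noncoding RNA Lexis in adipocytes and leaves it in other cells. The study's methods give the age of mice in general terms, and none for these libraries in particular. In both libraries the genotype in the file's name is opposite to that of the label, and Lexis, which would check the labels, was not analysed here, so each direction holds for the labels as given. With 1 library per genotype no test was made, all intervals are 95% ones and cover counting error alone, and a difference between genotypes cannot be told apart from one between preparations.

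Thermogenic adipocytes burn fuel to make heat. UCP1 lets protons back across the inner mitochondrial membrane without making ATP, CIDEA coats lipid droplets and marks brown and beige fat cells, and PGC-1α (Ppargc1a) is a transcriptional coactivator that drives mitochondrial biogenesis and is also made in other oxidative tissues such as skeletal muscle. In inguinal fat, beige adipocytes with these genes lie scattered among white adipocytes, and become more frequent in the cold.

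The matrices held 9376351 UMIs for the library labelled WT and 19655049 for the library labelled KO. The library labelled WT held 79 thermogenic-transcript nuclei of 423 adipocyte barcodes, and the library labelled KO held 298 of 1072. The groups of nuclei differed in depth: in the library labelled WT the thermogenic-transcript nuclei had a median of 5404 UMIs (range 980 to 20600) and the transcript-negative nuclei 3861.5. In the library labelled KO the medians were 9063 (range 1642 to 66070) and 7083.5. All 6 adipocyte genes had a UMI in 44 of the 79 nuclei and in 257 of the 298, though the selection itself used these genes. Many barcodes also held transcripts of other classes: 61 of 79 and 235 of 298 thermogenic-transcript nuclei had UMIs of at least 2 markers of macrophages, lymphocytes, progenitors, endothelium, vessel wall, skeletal muscle, epithelium or Schwann cells, as did 223 of 344 and 603 of 774 transcript-negative nuclei. No doublet caller was run. The matrices shared 12 barcode sequences, 10 of them among kept barcodes and 0 among the thermogenic-transcript nuclei.

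Most of these nuclei rested on a single molecule. In the library labelled WT, 58 of 79 had 1 UMI of the 3 genes in sum, 10 had 2 UMIs and 11 had 3 or more. In the library labelled KO, 175 of 298 had 1 UMI, 58 had 2 and 65 had 3 or more. Nuclei with 10 or more UMIs numbered 1 and 12. At the edges of the selection, 11 and 3 nuclei passed with just 4 of the 6 adipocyte genes, and 6 of 69 and 23 of 349 barcodes with 3 of the 6 held a UMI of the thermogenic genes and were left out. Mitochondrial shares of 4 to 5% were seen in 2 and 6 selected nuclei, and 1 and 5 further barcodes were left out at 5 to 6%.

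Ppargc1a was the gene that brought in most nuclei. It was the sole gene of the 3 in 55 of the 79 nuclei labelled WT (69.6%) and in 163 of the 298 labelled KO (54.7%). Cidea alone marked 10 nuclei (12.7%) and 99 nuclei (33.2%). Ucp1 alone marked 6 nuclei and 1 nucleus. At least 2 of the genes were found together in 8 and 35 nuclei, and all 3 together in 1 and 6. Summed over the selected nuclei, Ucp1 had 45 and 78 UMIs, Cidea 18 and 351, and Ppargc1a 82 and 387. The RefSeq gene spans on GRCm38.p6 are 8109 bases for Ucp1, 24231 for Cidea and 661605 for Ppargc1a, and UMIs are not corrected for length, so these sums do not rank the genes against each other.

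Ucp1 UMIs were concentrated in few nuclei. Of the 78 Ucp1 UMIs of the library labelled KO, 32 lay in 1 nucleus and 24 in another, and of the 45 of the library labelled WT, 16 lay in 1 nucleus. In the library labelled KO, 8 of 133 adipocytes with a Cidea UMI also had a Ucp1 UMI (6.02%, 2.63 to 11.5), against 2 of 939 without one (0.213%, 0.0258 to 0.767), at median depths of 7680 and 7600 UMIs. For the library labelled WT the same counts were 4 of 15 (26.7%, 7.79 to 55.1) and 9 of 408 (2.21%, 1.01 to 4.15). For Ppargc1a and Cidea the intervals overlapped. A Ppargc1a UMI was found in 32 of 133 adipocytes with a Cidea UMI (24.1%) and 164 of 939 without one (17.5%) of the library labelled KO, and in 2 of 15 (13.3%) and 58 of 408 (14.2%) of that labelled WT.

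The share of adipocytes with a transcript rose with sequencing depth. Within the library labelled WT it was 8.06% (2.67 to 17.8, n = 62) at 1024 to below 2048 UMIs, 13.9% (8.56 to 20.8, n = 137) in the next doubling, 23.7% (17.3 to 31.2, n = 156) in the one after and 28.3% (16.8 to 42.3, n = 53) at 8192 to below 16384 UMIs. Among nuclei labelled KO the same bins gave 9.76% (2.72 to 23.1, n = 41), 20.3% (14.1 to 27.7, n = 148), 24.6% (20.4 to 29.1, n = 395) and 34.1% (29.1 to 39.5, n = 337). The library labelled KO was the higher in each of these 4 bins, with overlapping intervals. At full depth the shares were 18.7% (15.1 to 22.7) and 27.8% (25.1 to 30.6). A random draw of 1000 UMIs from each nucleus, which left out 5 and 6 shallower nuclei, gave 7.18% (4.89 to 10.1, 30 of 418) and 5.44% (4.16 to 6.98, 58 of 1066). The shares that such a draw gives on average, computed from each nucleus's counts, were 5.87% and 6.34%, in the opposite order. No order of the libraries in the share for the 3 genes together can therefore be read from the draw. The difference in the draw, labelled KO minus labelled WT, was -1.74 percentage points (-4.92 to 1.02). Single genes did not all go the same way. In 1 draw of 2000 UMIs the difference was 3.70 points (1.17 to 5.76) for Cidea, -1.38 (-3.45 to -0.0227) for Ucp1 and -1.82 (-5.33 to 1.17) for Ppargc1a. Unthinned, it was 8.86 (5.92 to 11.5), -2.14 (-4.32 to -0.516) and 4.10 (-0.237 to 8.11).

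**Figure D1:**
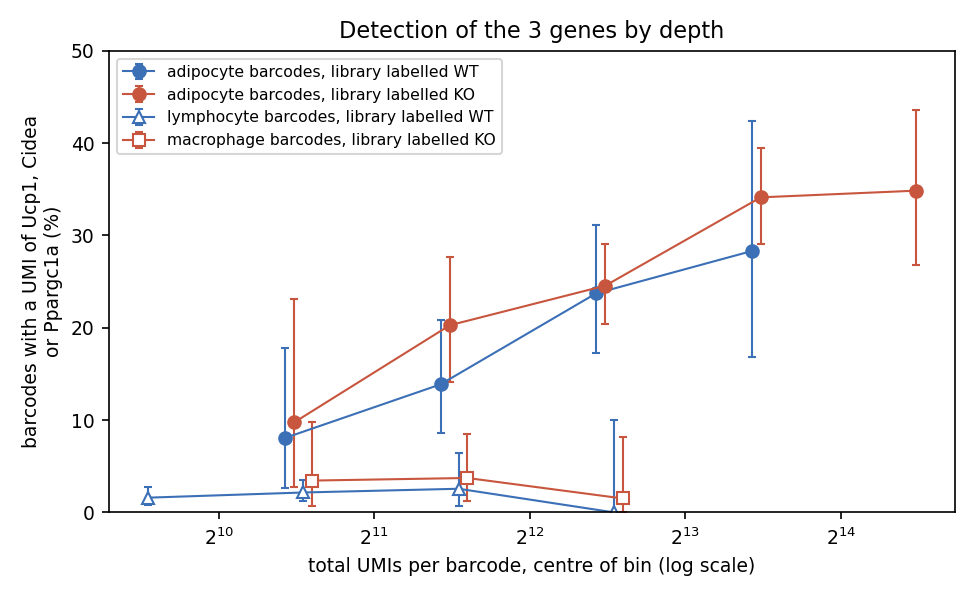
Percentage of barcodes holding any Ucp1, Cidea or Ppargc1a UMI (vertical axis) against total UMIs per barcode in bins of a doubling (horizontal axis, log scale), with exact Clopper-Pearson 95% intervals, for bins of at least 20 barcodes. The adipocyte share rises from 8.06% to 28.3% in the library labelled WT and from 9.76% to 34.8% in the library labelled KO, while lymphocyte and macrophage barcodes stay below 4%.

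Free RNA in droplets can give a UMI to a nucleus that does not make the transcript, and immune nuclei, which are not thermogenic, give a measure of it. The immune barcodes counted here had a UMI of at most 1 of the 6 adipocyte genes. Those with most free adipocyte RNA were thereby left out, so the measure may be too low. In the WT-labelled library, 1.72% of lymphocyte barcodes (1.01 to 2.74, 17 of 988) and 2.27% of macrophage barcodes (0.471 to 6.50, 3 of 132) had a UMI of the 3 genes at 1000 UMIs. For the library labelled KO, 1.34% of macrophage barcodes did (0.367 to 3.40, 4 of 298). Unthinned, lymphocytes of the library labelled WT stood at 1.88% with a median of 1054 UMIs, and macrophages of the library labelled KO at 3.47% with a median of 2676 UMIs. In bins of equal depth the adipocytes of the library labelled KO stood above its macrophages, at 20.3% against 3.73% (1.22 to 8.49) for 2048 to below 4096 UMIs and 24.6% against 1.52% (0.0384 to 8.16) for 4096 to below 8192 UMIs. The intervals overlapped for 1024 to below 2048 UMIs, at 9.76% against 3.45% (0.717 to 9.75). They also did for 8192 to below 16384 UMIs, at 34.1% against 9.09% (0.230 to 41.3). Below 1024 UMIs 0 of 6 adipocytes and 1 of 19 macrophages had a UMI.

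Taken gene by gene in the draw of 1000 UMIs, the intervals of immune and adipocyte shares separated for Ppargc1a alone. This depended on depth. At 500 UMIs those of Ppargc1a overlapped in the library labelled KO (0.785 to 2.30% against 0 to 1.16% of macrophages). Unthinned, where adipocytes were deeper, Cidea separated from macrophages there (10.5 to 14.5% against 1.31 to 5.32%). Cidea and Ucp1 then also separated from lymphocytes of the library labelled WT (2.00 to 5.78% against 0.161 to 0.822%, and 1.65 to 5.20% against 0.274 to 1.05%). Ppargc1a at 1000 UMIs was found in 5.02% (3.14 to 7.58) of adipocytes and 1.01% (0.486 to 1.85) of lymphocytes of the library labelled WT, and in 2.63% (1.75 to 3.77) of adipocytes and 0 of 298 macrophages of the library labelled KO, a count that allows up to 1.01% as 3 counts of the total and 1.23% as the Clopper-Pearson limit. For Cidea the intervals overlapped: 1.20% (0.390 to 2.77) against 0.405% (0.110 to 1.03) in the library labelled WT and 3.00% (2.06 to 4.21) against 1.34% (0.367 to 3.40) in the library labelled KO. The Ucp1 intervals also overlapped, at 1.67% (0.676 to 3.42) against 0.304% (0.0627 to 0.885), and at 0.469% (0.152 to 1.09) against 0 of 298, with the same limits. Since lymphocytes also held Ppargc1a, nuclei with 1 UMI of any of the 3 genes can not all be told from free RNA.

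The nuclei with many molecules of the 3 genes were few, and those labelled KO carried a broad set of other thermogenic transcripts. Nuclei with at least 3 Ucp1 UMIs numbered 5 in the library labelled WT and 6 in that labelled KO. Within the library labelled KO their Ucp1, Cidea and Ppargc1a UMIs were 32, 20 and 55 in the first nucleus, 24, 11 and 13 in the second, 7, 21 and 7 in the third, 4, 8 and 1 in the fourth, 3, 10 and 5 in the fifth and 3, 3 and 0 in the sixth. Of a list of 36 further thermogenic genes (35 of them in the matrix), these nuclei held UMIs of 14 to 22 genes and 106 to 293 UMIs in all, where transcript-negative nuclei of the library held a median of 7 genes (range 0 to 16). That is 13066 to 48668 counts per 1000000 UMIs (CPM) for the list, against a median of 5548 CPM in the transcript-negative nuclei of the same library. The third held UMIs of 4 macrophage and 3 progenitor markers, and the first, the fourth and the fifth of 3 progenitor markers each.

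The 5 nuclei of the library labelled WT were weaker but also shallower, at 2948 to 7221 UMIs in all against 4780 to 15619. UMI and gene counts of these nuclei are not corrected for depth. Their Ucp1, Cidea and Ppargc1a UMIs were 16, 3 and 0 in the first nucleus, 7, 0 and 0 in the second, 4, 1 and 0 in the third, 4, 0 and 0 in the fourth and 3, 0 and 2 in the fifth. They held UMIs of 5 to 16 genes of the list, beside a median of 5 genes (range 0 to 13) in transcript-negative nuclei, at 3436 to 15085 CPM, against a median of 7428 CPM in transcript-negative nuclei, so that 3 of the 5 lay above that median. The second held UMIs of 4 lymphocyte markers, the fourth of 5 macrophage markers and the fifth of 3 lymphocyte, 2 macrophage and 2 progenitor markers, and 2 further barcodes of this library with at least 3 Ucp1 UMIs were not adipocyte barcodes by the rule.

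A further group in the library labelled KO had many Cidea UMIs and no Ucp1. Of its 12 nuclei with 10 or more UMIs of the 3 genes, 5 carried the 3 genes together, 6 had 10 to 19 Cidea UMIs with at most 1 of Ppargc1a, and 1 very deep nucleus (62576 UMIs) had 17 Ppargc1a UMIs and neither of the others. These 12 nuclei, chosen after their values were seen, all had UMIs of Ppara, Pdk4 and Prdm16, and 11 of 12 had UMIs of Esrrg. Ppara encodes the fatty acid-sensing receptor PPARα, Pdk4 a kinase that turns off pyruvate dehydrogenase and so spares glucose, Prdm16 a coregulator that sets brown and beige fat identity, and Esrrg an orphan nuclear receptor of oxidative tissues. Pdk4 stood at 2438 CPM in the 12 nuclei, 336 CPM in the other 286 thermogenic-transcript nuclei and 159 CPM in transcript-negative nuclei. Ppara followed the same order at 967, 103 and 42.4 CPM, and Esrrg at 510, 102 and 41.3 CPM. Prdm16 differed less, at 255, 153 and 112 CPM. The 12 nuclei were not alike, and the summed values rest more on some than on others. Pdk4 ranged from 1 UMI in a nucleus of 11337 UMIs to 75 in one of 9230, with 2 of 10193 and 5 of 62576 in others. The very deep nucleus stood at 5179 CPM for the thermogenic list, below the median of 5548 CPM in transcript-negative nuclei. Dio2, the enzyme that activates thyroid hormone in brown fat, had 13 UMIs in 3 of the 12 nuclei, 8 UMIs in the other 286 and 2 UMIs in 774 transcript-negative nuclei. Elovl3 and Cited1, which mark cold-activated brown and beige fat, had no UMI in any of the 1072 adipocyte barcodes of this library. Among nuclei labelled WT Elovl3 had 8 UMIs in 5 of 79 thermogenic-transcript nuclei and 1 UMI in 344 transcript-negative nuclei, whereas Cited1 had 0 UMIs in the former and 3 UMIs in 3 of the latter.

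**Figure D2:**
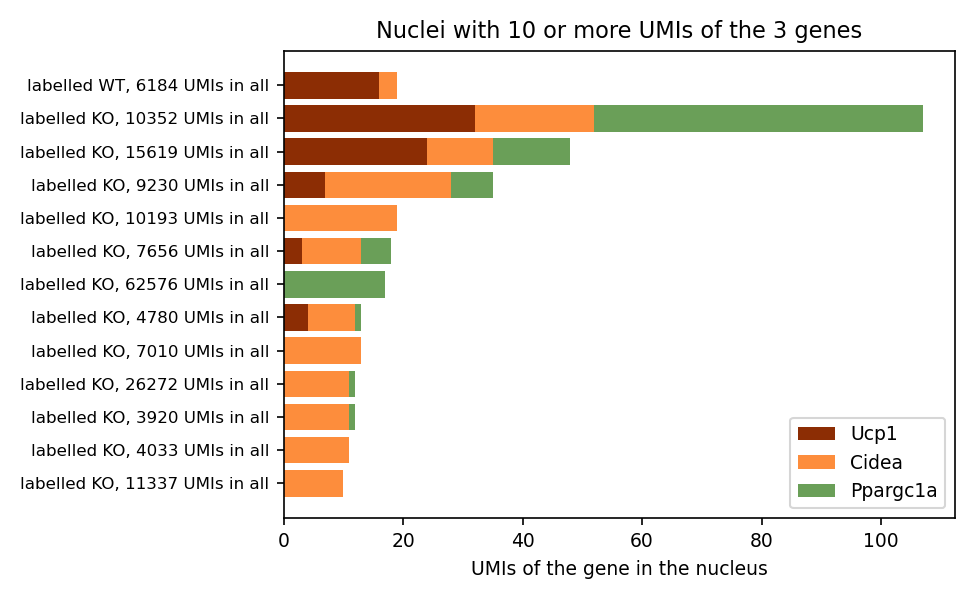
UMIs of Ucp1, Cidea and Ppargc1a (horizontal axis, stacked) in each of the 13 nuclei with 10 or more UMIs of the 3 genes (vertical axis, with the library label and the total UMIs of the nucleus). The highest bar, 107 UMIs, holds 32 of Ucp1, 20 of Cidea and 55 of Ppargc1a, and 6 nuclei of the library labelled KO hold almost solely Cidea.

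Beside their own depth matches, 11 of these 12 nuclei (the deepest had no match) held 416 against 16 UMIs of Pdk4, 165 against 5 of Ppara and 87 against 1 of Esrrg. Genes outside the thermogenic list stood out with them: Adra1a, an α1-adrenergic receptor, had 68 against 4 UMIs, and Ntrk3, a neurotrophin receptor, 65 against 2. Scd1, the stearoyl-CoA desaturase, had 513 against 141 and was found in 11 of 11 nuclei on both sides. Genes of the mitochondrial genome were also higher, with 434 against 120 UMIs of mt-Co3. These genes were picked for their size and are a description of the nuclei.

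The level of the thermogenic list was highest in the nuclei with most molecules of the 3 genes, and differed little between nuclei with 1 and 2. In the KO-labelled library the median CPM of the thermogenic list, in which Ucp1, Cidea and Ppargc1a are not counted, was 5548 (range 0 to 19260) in nuclei with no UMI of the 3 genes, 7062 (0 to 17533) with 1, 7112 (1810 to 21556) with 2, 8045 (2066 to 37764) with 3 to 9 and 20447 (5179 to 48668) with 10 or more. For the library labelled WT it was 7428 (0 to 21304) with none, 7909 (1693 to 20349) with 1, 8118 (5315 to 15810) with 2, 11108 (3436 to 18135) with 3 to 9, and 15085 in the 1 nucleus with more. The ranges overlapped throughout, and without Acsl1 the median of the library labelled KO was 3337 CPM with 1 UMI and 3241 CPM with 2. A nucleus with 1 UMI could not be told from a transcript-negative nucleus by this list.

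**Figure D3:**
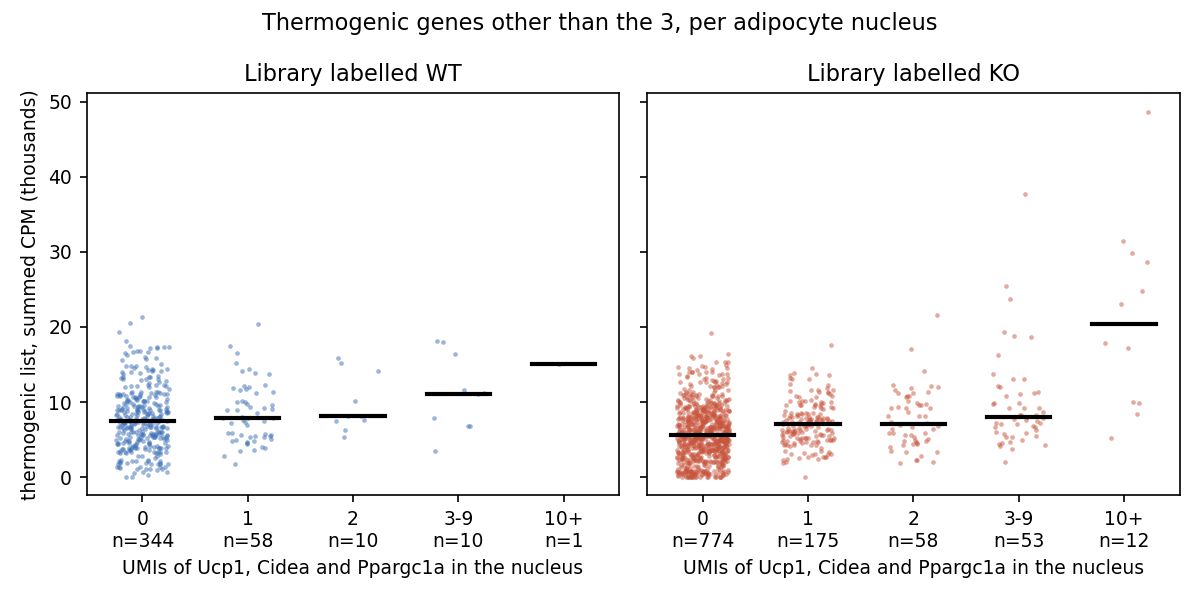
Summed CPM of the thermogenic list without Ucp1, Cidea and Ppargc1a (vertical axis, in units of 1000 CPM) in each adipocyte nucleus, by UMIs of those 3 genes (horizontal axis), for the library labelled WT (left) and the library labelled KO (right). Points are nuclei and bars are medians, which climb from 5548 CPM to 20447 CPM in the library labelled KO, with overlapping ranges.

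To ask what else set these nuclei apart, each was paired within its library with the transcript-negative nucleus nearest in UMIs. A match within 10% was found for all 79 nuclei labelled WT and for 296 of the 298 labelled KO. Counts were summed over each side and given as a CPM ratio, and a gene was called when it had at least 50 counts over both sides, a ratio past 1.5 times in either direction and an interval leaving out 1. Of 3216 genes with enough counts in the library labelled WT, 250 were higher in the thermogenic-transcript nuclei (7.77%) and 67 lower (2.08%). Of 10120 genes in the library labelled KO, 283 were higher (2.8%) and 592 lower (5.85%). Within the library labelled WT the median log2 ratio of all genes was 0.12, and scaling by the trimmed mean of M values (TMM), which brought it to 0.0066, changed the split to 139 higher and 122 lower. Leaving mitochondrial genes and Malat1 out of the totals gave 127 and 143. Among nuclei labelled KO the median was -0.0030 and TMM scaling gave 314 and 554.

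The sides also differed in transcripts of other cell types. In the KO-labelled library the progenitor and fibroblast markers stood at 699 CPM in thermogenic-transcript nuclei and 1393 CPM in their matches (ratio 0.502, 0.477 to 0.528), with 6 of 8 markers lower, and the macrophage markers at 413.5 and 637 CPM (0.649, 0.605 to 0.696), with 6 of the 7 markers that had enough counts lower. Skeletal muscle markers went the other way, at 405 and 38.7 CPM (10.5, 8.71 to 12.7), and at 6.03 (4.97 to 7.36) without the pair of the nucleus that held 43.0% of their UMIs. Leaving out the pair of the nucleus with most UMIs gave 0.622 (0.589 to 0.656) for progenitor and 0.698 (0.650 to 0.749) for macrophage markers. Done for single macrophage markers, that step ended the lower calls of Cd163, Csf1r, F13a1 and Mrc1. For the library labelled WT progenitor markers stood at 2256 and 1778 CPM (1.27, 1.16 to 1.39), macrophage markers at 643 and 637 CPM (1.01, 0.860 to 1.18) and lymphocyte markers at 415 and 419.5 CPM (0.990, 0.811 to 1.21). Endothelial markers there had a ratio of 2.26 (1.45 to 3.61) and skeletal muscle markers of 3.00 (1.37 to 7.25; 27 against 9 UMIs). Single nuclei set these values in the library labelled WT. Of the progenitor marker UMIs 55.5% lay in 1 nucleus, and without its pair the ratio was 0.568 (0.508 to 0.635), on the other side of 1. The endothelial and muscle ratios were 1.30 (0.787 to 2.17) and 1.55 (0.627 to 4.07) without the pair of the nucleus with most of their UMIs. All 6 adipocyte genes had a UMI in 86.1% of thermogenic-transcript nuclei and 74.7% of matches of the library labelled KO, and in 55.7% and 48.1% of the library labelled WT. When matches also had the same number of the 6 genes, the lower calls of the library labelled KO numbered 274 in place of 592, an alternative chosen after seeing the data. The part of other cell types' RNA in the remaining calls was not tested. The 6 adipocyte genes, which the selection used, summed to 7182 against 6157 CPM in the library labelled WT and 8589 against 8123 CPM in that labelled KO.

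The summed level of the thermogenic list was higher in both libraries, while most of its genes were not called. The list summed to 8637 CPM in thermogenic-transcript nuclei and 7025 CPM in matches of the library labelled WT (ratio 1.23, 1.18 to 1.29), and to 7845 and 6021 CPM in the library labelled KO (1.30, 1.28 to 1.33). The thermogenic-transcript nucleus had the higher value in 51 of 79 pairs (64.6%) and in 201 of 296 (67.9%). Of the 35 genes in the matrix, 10 had enough counts in the library labelled WT, with 3 higher and none lower beside a background of 7.77% and 2.08%, and 21 had enough in the library labelled KO, with 8 higher and none lower beside 2.8% and 5.85%. The median log2 ratio of these genes was 0.25 and 0.46, beside 0.12 and -0.0030 for all genes. Acsl1, which activates long-chain fatty acids, supplied 65.0% and 47.2% of the list's counts, and without it the ratios were 1.30 (1.20 to 1.41) and 1.44 (1.41 to 1.48). The list was higher under each alternative tried, at 1.10 to 1.56 in the library labelled WT and 1.20 to 1.42 in the library labelled KO.

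Of the thermogenic list genes with enough counts in the library labelled KO, Ppara had the highest ratio. It had 481 UMIs in 127 thermogenic-transcript nuclei of the library labelled KO and 134 UMIs in 76 matches (ratio 3.58, 2.95 to 4.37). Within the library labelled WT it had 11 UMIs in 8 nuclei against 2 UMIs in 2, too few to be called. Without the nuclei with 10 or more UMIs of the 3 genes its ratio in the library labelled KO was 2.46, below that of Otop1 (3.11), described below. Among nuclei with 2 or more UMIs of the 3 genes, Ppara stood at 4.59 and Otop1 at 5.85, so their order changed with the nuclei counted. Ppargc1b, the PGC-1β coactivator related to Ppargc1a, was higher in both libraries, with 51 against 22 UMIs (2.32, 1.38 to 4.01) in the library labelled WT and 465 against 294 (1.58, 1.36 to 1.83) in the library labelled KO. Pdk4 and Esrrg, named here after their values were seen, had ratios of 2.83 (2.55 to 3.13) and 2.73 (2.25 to 3.32) in the library labelled KO. Pdk4 was also higher in the library labelled WT (1.89, 1.32 to 2.75), where 22.0% of its UMIs lay in 1 nucleus and its ratio was 1.26 with matches of the same number of adipocyte genes, whereas Esrrg had 0 UMIs against 1.

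Further genes of the thermogenic list were called in the library labelled KO. Plin5, a lipid droplet protein that ties droplets to mitochondria, had 63 against 23 UMIs (2.73, 1.67 to 4.62) there and 21 against 10 in the library labelled WT, which was not called. Otop1, a proton channel, had 60 UMIs in 51 nuclei against 17 UMIs in 14 (3.52, 2.03 to 6.44). Gk, the glycerol kinase that lets fat cells reuse glycerol, had 156 against 76 UMIs (2.05, 1.55 to 2.73), with 20.5% of them in 1 nucleus, and its ratio was 1.10 (0.799 to 1.52) without the nuclei with 10 or more UMIs of the 3 genes. Among nuclei labelled WT it had 52 against 13 UMIs (4.00, 2.15 to 8.0), with 21.2% in 1 nucleus. Its ratio there was 1.91 (0.914 to 4.22) without the 3 nuclei with most Ucp1, so the call rested on those nuclei. Pank1, a kinase of coenzyme A synthesis, had 42 against 18 UMIs (2.33, 1.31 to 4.30) in the library labelled KO, with 21.4% in 1 nucleus. Genes often used to mark beige fat differed less or were rare. In the KO-labelled library Prdm16 had a ratio of 1.41 (1.23 to 1.62), Ebf2 of 1.37 (1.23 to 1.53) and Adrb3 of 1.20 (1.12 to 1.28), below the 1.5 times needed for a call. Cox8b had 47 against 38 UMIs, Letmd1 60 against 63, and Tmem26 and Tbx1 2 and 4 UMIs against 0.

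**Figure D4:**
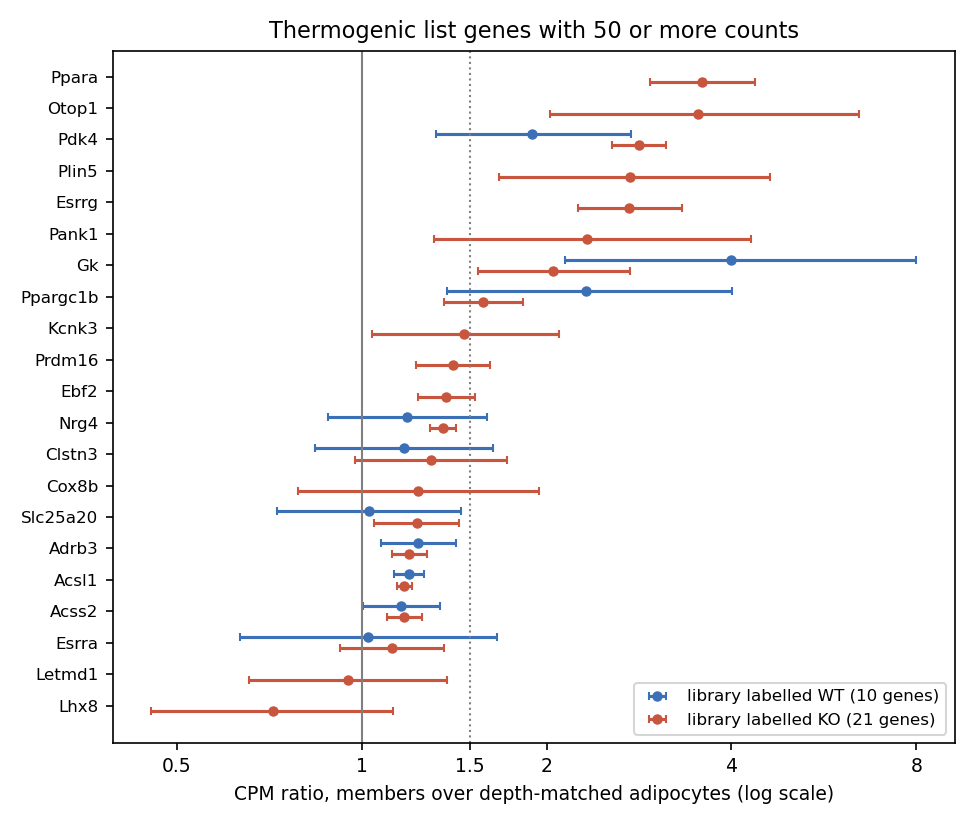
CPM ratio of thermogenic-transcript nuclei over their depth matches (horizontal axis, log scale) for each thermogenic list gene with 50 or more counts (vertical axis), with exact conditional binomial 95% intervals for counting error. Of 21 genes in the library labelled KO, 19 lie above 1 and 8 were called higher, led by Ppara at 3.58, and Lhx8 lies lowest at 0.719.

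The size of the difference varied with which of the 3 genes had been detected, not in the same order in both libraries. These splits use the genes that selected the nuclei. For the library labelled KO the thermogenic list ratio was 1.11 (1.08 to 1.14) for the 162 matched nuclei with Ppargc1a alone, 1.50 (1.44 to 1.55) for the 99 with Cidea alone, and 2.03 (1.92 to 2.14) for the 34 with 2 or 3 of the genes. The 10 nuclei with Ucp1, alone or not, stood at 3.53 (3.19 to 3.91). Within the library labelled WT the ratio was 1.25 (1.19 to 1.32) for the 55 nuclei with Ppargc1a alone, 1.05 (0.914 to 1.21) for the 10 with Cidea alone and 1.94 (1.66 to 2.26) for the 8 with 2 or 3 of the genes, and it lay below 1 for the 6 nuclei with Ucp1 alone (0.735, 0.620 to 0.870). Its 13 nuclei with Ucp1, alone or not, stood at 1.23 (1.10 to 1.38). By number of molecules, the ratio in the library labelled WT was 1.14 (1.08 to 1.20) with 1 UMI in sum, 1.04 (0.895 to 1.21) with 2 and 2.01 (1.78 to 2.27) with 3 or more, so the interval for 2 UMIs held 1. With the label KO it was 1.19 (1.16 to 1.22), 1.22 (1.17 to 1.27) and 1.69 (1.63 to 1.76).

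The summed level of fatty acid oxidation genes was above that of the matches in both libraries, while single genes were called in the library labelled WT alone. The difference between the libraries was not tested. The fatty acid oxidation list stood at 2433 against 1751 CPM in the library labelled WT (1.39, 1.27 to 1.52), with 4 of 10 genes called higher beside a background of 7.77%, and at 2449 against 2030 CPM in the library labelled KO (1.21, 1.17 to 1.25), with 0 of 17 called higher beside 2.8%. The 4 genes called in the library labelled WT were Acadm, the medium-chain acyl-CoA dehydrogenase (2.08, 1.48 to 2.95), Etfb, a subunit of the electron carrier that serves it (2.04, 1.23 to 3.48), Acadl, the long-chain dehydrogenase (1.56, 1.10 to 2.25), and Hadha, a subunit of the trifunctional protein (1.52, 1.15 to 2.01). With TMM scaling Acadl (1.45) and Hadha (1.41) fell short of 1.5 times, which left 2 of the 4 calls. The same scaling ended the calls of Sdha, Thra, Me1 and Tob2 in this library. Among nuclei labelled KO Acadm, Etfb, Acadl and Hadha had ratios of 1.36, 1.11, 1.28 and 1.29. Nuclear genes of the respiratory chain differed less, at 1.19 (1.07 to 1.32) and 1.12 (1.08 to 1.16), with 2 of 15 higher (Sdha, of complex II, and Atp5c1, of ATP synthase) beside 7.77% of all genes, and 1 of 28 (Sdhb, of complex II) beside 2.8%, a share near that of all genes.

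Of the genes that take up glucose and build fat, some were called in each library and Pck1 and Acacb in both. The insulin and glucose list had ratios of 1.42 (1.33 to 1.52) and 1.20 (1.18 to 1.22), with 3 of 9 genes called higher beside 7.77% and 2 of 10 beside 2.8%. Pck1, the phosphoenolpyruvate carboxykinase of glycerol synthesis in fat, was higher in both libraries, with 656 UMIs in 66 nuclei against 399 in 63 matches (1.64, 1.45 to 1.87) and 2698 UMIs in 258 nuclei against 1275 in 194 (2.11, 1.97 to 2.26). Slc2a4, the insulin-responsive glucose transporter GLUT4, had a ratio of 1.67 (1.33 to 2.11) in the library labelled KO and 1.51 (0.943 to 2.47) in the library labelled WT, where its interval held 1. Irs2, an insulin receptor substrate, was called in the library labelled WT at 2.00 (1.20 to 3.41), and stood at 0.9996 (0.393 to 2.54) among nuclei with 2 or more UMIs of the 3 genes. The lipogenesis list stood at 1.27 (1.21 to 1.33) and 1.17 (1.15 to 1.19), with 4 of 13 genes called higher beside 7.77% and 1 of 14 beside 2.8%. Acacb, the acetyl-CoA carboxylase at mitochondria, whose product restrains fatty acid entry, was the one gene of this list higher in both, at 1.80 (1.17 to 2.80) and 1.75 (1.61 to 1.89). Fasn, the fatty acid synthase, had 308 against 159 UMIs (1.94, 1.59 to 2.36) in the library labelled WT and 489 against 451 (1.08, 0.950 to 1.23) in the library labelled KO. Elovl6, a fatty acid elongase, had ratios of 2.24 and 0.761, with 24.3% of its UMIs in 1 nucleus of the first, and Me1, the malic enzyme, 1.59 and 1.25.

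The lipolysis and adrenergic list had ratios of 1.10 (1.04 to 1.16) in the library labelled WT and 1.17 (1.14 to 1.19) in the library labelled KO, the second being 0.976 (0.930 to 1.02) without barcodes holding 2 or more markers of another class. Pde3b, the phosphodiesterase through which insulin restrains lipolysis, had 4277 against 2726 UMIs (1.57, 1.49 to 1.64) in the library labelled KO, and Adrb1, the β1-adrenergic receptor, 41 against 24 (1.70, 1.01 to 2.95). Neither was called in the library labelled WT. Triglyceride synthesis genes had ratios of 1.21 (1.11 to 1.33) and 1.04 (1.01 to 1.08), of which the first fell below 1 under that same restriction (0.902, 0.717 to 1.13) and the second under 5 alternatives. Dgat1, which makes the last bond of triglyceride, was called in the library labelled WT alone (1.78, 1.36 to 2.34) and had a ratio of 0.951 in the library labelled KO. White adipocyte genes were 1.04 (1.01 to 1.07) and 1.15 (1.14 to 1.17), the first falling below 1 under 4 alternatives, TMM scaling among them. In the WT-labelled library the adipokine gene Cfd, adipsin, was lower (0.614, 0.457 to 0.820), as was the glutamate transporter gene Slc1a3 (0.666, 0.501 to 0.882), whereas they stood at 1.23 and 1.13 in the library labelled KO.

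**Figure D5:**
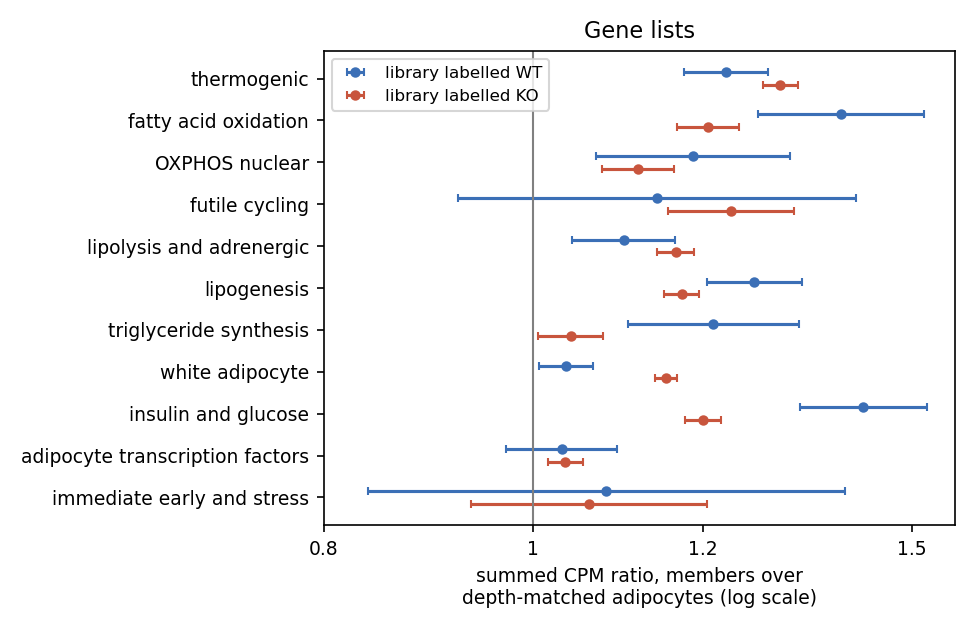
Summed CPM ratio of thermogenic-transcript nuclei over their depth matches (horizontal axis, log scale) for each gene list (vertical axis) and library, with exact conditional binomial 95% intervals for counting error. The thermogenic list (1.23 and 1.30) and the insulin and glucose list (1.42 and 1.20) lie above 1 in both libraries, and the adipocyte transcription factors (1.03 and 1.04) lie close to 1.

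The summed level of adipocyte transcription factors differed little, with ratios of 1.03 (0.972 to 1.09) and 1.04 (1.02 to 1.06), with 1 of 7 genes called higher beside 7.77% and 2 of 22 beside 2.8%. For the library labelled KO Irf4, a factor that drives thermogenic genes with PGC-1α, had 85 UMIs in 25 nuclei against 35 in 20 (2.42, 1.62 to 3.70), with 30.6% in 1 nucleus, and Rxrg, a retinoid X receptor, 78 against 50 (1.56, 1.08 to 2.27). Within the library labelled WT Thra, a thyroid hormone receptor, had 39 against 22 UMIs (1.77, 1.02 to 3.14). Immediate early and stress genes, which rise when tissue is handled, stood at 1.08 (0.838 to 1.40) and 1.06 (0.936 to 1.21). They moved with the thermogenic list among the nuclei labelled KO, at 5.67 (3.41 to 9.94; 102 against 18 UMIs) in the 10 nuclei with Ucp1, 2.45 (1.77 to 3.44) in those with 2 or 3 of the genes, 2.10 (1.65 to 2.68) with 3 or more UMIs in sum and 0.762 (0.636 to 0.913) with 1 UMI. With 3 or more UMIs the library labelled WT gave 1.94 (1.07 to 3.65). The part of handling in the thermogenic ratios of these nuclei was not tested. Nr4a1 was the one gene called, in the library labelled KO, with 72 UMIs in 17 nuclei against 15 in 11 (4.79, 2.72 to 9.0), of which 31.9% lay in 1 nucleus, and its ratio was 2.26 without the nuclei with many UMIs of the 3 genes.

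Futile cycling genes spend ATP on calcium or creatine turnover, and some of them are also muscle genes. The list stood at 1.24 (1.16 to 1.32) in the library labelled KO, with 2 of 8 genes called higher beside 2.8%: Ryr1, the muscle calcium release channel (102 UMIs in 7 nuclei against 2 in 2), itself one of the muscle markers, and Atp2a1, the muscle calcium pump (141 UMIs in 15 against 14 in 13). Of the UMIs of these genes, 40.2% and 48.2% lay in 1 nucleus, and without its pair their ratios were 30.4 (8.07 to 257) and 5.20 (2.91 to 9.98). Without the barcodes with at least 2 skeletal muscle markers, an alternative chosen after seeing the data, the ratio of Atp2a1 was 1.10 (0.423 to 2.88) and that of Ryr1 2.99 (0.240 to 157). Muscle nuclei of this library often carried Ppargc1a: of 72 kept barcodes with at least 3 muscle markers, 30 had a Ppargc1a UMI (41.7%), against 7.03% of the other kept barcodes. Of these 72, 5 were thermogenic-transcript nuclei, each with Ppargc1a, and they held 1151 of the 1295 muscle marker UMIs of all 298. Without the barcodes with at least 2 muscle markers the thermogenic list ratio was 1.36 (1.33 to 1.39), so it was as large without them. In the 10 nuclei labelled KO with Ucp1 the futile cycling list stood at 4.15 (2.69 to 6.64; 108 against 26 UMIs), and the 6 of them with at least 3 Ucp1 UMIs held 0 skeletal muscle markers. It was 2.06 (1.79 to 2.36) with 3 or more UMIs of the 3 genes in sum and 0.967 (0.879 to 1.06) with 1 UMI. No barcode of the library labelled WT had 3 muscle markers. There Atp2a2, the SERCA pump of most cell types, was higher (82 against 47 UMIs, 1.74, 1.20 to 2.55), Itpr2, an inositol trisphosphate receptor, was lower (22 against 39, 0.564, 0.318 to 0.974), and the list interval held 1 (1.14, 0.924 to 1.41).

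Few genes were called the same way in both libraries. Of 3175 genes with enough counts in both, 12 were higher in both (0.378%) and 12 lower in both (0.378%). Among these genes, the 12 higher in both were 4.8% of the 250 called higher in the library labelled WT and 41.4% of the 29 called higher in the library labelled KO. The 12 lower in both were 20% of 60 and 13.6% of 88 lower calls. After leaving out genes with over 20% of the UMIs in 1 nucleus, 8 higher and 5 lower genes were left, of which 7 and 5 are described. Besides Ppargc1b, Pck1 and Acacb, the higher genes were Ces1d, a carboxylesterase that acts on stored lipid (1.69 and 1.75), Rcor3, a corepressor subunit (2.10 and 1.55), Elmod2, a lipid droplet and GTPase-activating protein (1.87 and 1.51), and Tob2, an antiproliferative protein (1.61 and 1.50). Ces1d was found in 41 against 30 nuclei and in 260 against 203.

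The 5 lower genes were Dclk1, a microtubule-associated kinase (0.260 and 0.633), Mir142hg, the host gene of a miRNA of blood cells (0.476 and 0.471), Ms4a4b, a T cell membrane protein (0.569 and 0.424), Rap2b, a small GTPase (0.384 and 0.597), and Adcy7, an adenylyl cyclase abundant in blood cells (0.472 and 0.559). Without the pair of the nucleus with most of a gene's UMIs, Mir142hg and Ms4a4b alone stayed called in both libraries. That step ended the calls of Dclk1 (0.689) and Adcy7 (0.635) in the library labelled KO. It also ended those of Rap2b (0.411) and Adcy7 (0.469) in the library labelled WT. Mir142hg was found in 17 of 79 nuclei against 18 matches and in 16 of 296 against 36, and Ms4a4b in 12 against 25 and in 20 against 38. Several of these genes belong to immune cells, whose markers are given above except the lymphocyte markers of the library labelled KO. Those had 98 against 114 UMIs (0.858, 0.648 to 1.13). Whether the lower level of these genes came from less immune RNA was not tested. Restricting both sides to barcodes with fewer than 2 markers of each other cell class left 16 and 63 thermogenic-transcript nuclei. In these, of the genes named above, Ppargc1b, Elmod2, Tob2, Gk, Me1, Dgat1, Atp2a2, Atp5c1 and Thra of the library labelled WT lay below 1, as did Rcor3, Adrb1 and Atp2a1 of that labelled KO, and Rap2b of the latter lay above 1, each with an interval that held 1.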

How the data were processed

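Nuclei of inguinal fat were profiled with the 10x Genomics 3' assay. The deposited matrices give raw UMI counts for genes by barcodes, from Cell Ranger 6.1.1 per the file headers; the submitters' processing notes also name Seurat 4 and the genome build mm10. No normalized value was used. Depth was 9376351 and 19655049 UMIs over 5000 barcodes per library. The members and gene lists were chosen with earlier results of these data known.

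Members were selected by the rule given above. Each was matched without replacement, deepest first, to the transcript-negative adipocyte of its library nearest in UMIs (Ucp1, Cidea and Ppargc1a not counted), within 10%. Counts were summed and divided by total UMIs. Ratios have exact conditional binomial and shares exact Clopper-Pearson 95% intervals, which cover counting error only; nuclei are not replicates. Lymphocyte and macrophage barcodes were set by 2 and 3 markers with at most 1 adipocyte gene.

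Named genes were up to 10 each way called alike in both libraries, without genes of which 1 nucleus held over 20% of the counts, and up to 4 called genes per list; others are said to be chosen after their values were seen. Results for 2 genes are not reported here. Alternatives were matching on detected genes, depth-bin weighting, stricter membership, scaling with TMM (edgeR 4.0.16) or without mitochondrial genes and Malat1, other count minimums, and leaving out barcodes with other classes' markers or the nuclei with most UMIs. The scripts were tested on simulated data. Python 3.11.15, numpy 2.4.6, scipy 1.17.1, pandas 2.3.3, matplotlib 3.10.9 and R 4.3.3 were used.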

Additional observations from a re-analysis of the deposited data

Results flagged for a closer look

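The following values lay above 1 in the library labelled WT and below 1 in the library labelled KO, each as a CPM ratio of thermogenic-transcript nuclei over their depth matches. With 1 library per genotype, the difference between the libraries was not tested. The progenitor and fibroblast markers stood at 1.27 and 0.502, and the endothelial markers at 2.26 and 0.632. Among single genes called higher in the first library and lower in the second were the fibroblast matrix genes Col1a1 (1.90 and 0.514) and Fbn1 (2.57 and 0.645). Csf1, the growth factor of macrophages, stood at 2.72 and 0.644, Ccl8, a chemokine, at 2.13 and 0.611, and Dab2, an endocytic adaptor, at 1.76 and 0.488. Adap2 stood at 1.90 and 0.622, and F630028O10Rik at 1.84 and 0.601.

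Most of these opposite directions rested on 1 nucleus of the library labelled WT per gene, not the same one for each. It held 68.0% of the UMIs of Col1a1, 57.4% of those of Fbn1, 53.1% for Csf1, 43.1% for Dab2, 34.0% for Ccl8 and 27.1% for F630028O10Rik. Without the pair of that nucleus, an alternative chosen after seeing the data, Col1a1 stood at 0.614 (0.462 to 0.814) and progenitor markers at 0.568, so that both lay below 1 in each library. The ratio was 1.09 for Fbn1, 1.28 for Csf1, 0.999 for Dab2, 1.41 for Ccl8, 1.53 for F630028O10Rik and 1.30 for endothelial markers, each with an interval that held 1. Adap2 remained called at 1.64 (1.03 to 2.66). The same step ended, among nuclei labelled KO, the lower calls of Fbn1 (0.797), Ccl8 (0.897), Csf1 (0.704) and F630028O10Rik (0.678). It moved the endothelial markers there to 0.784 (0.631 to 0.973), short of the limit for a call.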

How the results depend on the processing

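The thermogenic list stayed above 1 in both libraries under each of the 12 alternatives that gave it a value. In the library labelled WT (1.23) it was 1.10 with matching on detected genes, 1.56 for nuclei with 2 or more UMIs of the 3 genes, 1.12 without mitochondrial genes and Malat1 in the totals, 1.14 with TMM scaling, and 1.15 with matches of the same number of adipocyte genes. In the library labelled KO (1.30) it was 1.25 with matching on detected genes, 1.24 with at least 5 of 6 adipocyte genes, 1.42 with 2 or more UMIs, 1.20 without barcodes holding 2 or more markers of another class, 1.28 without the 3 nuclei with most Ucp1, 1.36 without muscle-marked barcodes, 1.25 without barcodes led by another class, 1.24 with the same number of adipocyte genes and 1.25 without nuclei of 10 or more UMIs.

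Counts of called genes moved more. With a minimum of 1 count, 541 genes were higher and 259 lower in the library labelled WT, 488 higher and 986 lower in the library labelled KO, and 21 higher and 44 lower in both. With a minimum of 20 counts the library labelled WT gave 416 and 176, and 32 were lower in both. With 2 or more UMIs of the 3 genes it gave 86 and 28, and 6 higher and 6 lower in both. Without mitochondrial genes and Malat1 it gave 127 and 143, and 7 and 19 in both, and with TMM scaling 139 and 122. Without barcodes holding markers of another class, 33 were higher and 6 lower in the library labelled WT, 167 were lower in the library labelled KO, and 1 was higher and 0 lower in both. Weighting over depth bins gave 106 lower in the library labelled WT and 19 lower in both. At least 5 of 6 adipocyte genes gave 292 lower in the library labelled KO and 5 in both, leaving out barcodes led by another class 334 and 3, and the same number of adipocyte genes 274 and 4. Genes higher in both were 7 with matching on detected genes, 5 without the 3 nuclei with most Ucp1 and 7 without nuclei of 10 or more UMIs. The share of adipocytes with a transcript was 3.31% and 2.71% at 500 UMIs, 10.4% and 10.7% at 2000 UMIs, and 18.7% and 27.8% unthinned, in the libraries labelled WT and KO.

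Of 28 values that crossed 1, 22 had intervals holding 1. Of these 28, 17 did so where 16 and 63 nuclei were left, without barcodes holding 2 or more markers of another class, and 16 of the 17 intervals held 1. There the library labelled WT gave Atp2a2 0.714, Atp5c1 0.800, Dgat1 0.800, Elmod2 0.545, Gk 0.500, Me1 0.733, Ppargc1b 0.666, Thra 0.400, Tob2 0.727, respiratory chain genes 0.938 and triglyceride synthesis 0.902, and the library labelled KO gave Adrb1 0.872, Atp2a1 0.664, Rap2b 1.10, Rcor3 0.923, lipolysis 0.976 and triglyceride synthesis 0.829. Without barcodes led by another class, Atp2a1 was 0.702 and triglyceride synthesis 0.955 in the library labelled KO, and white adipocyte genes 0.957 in the library labelled WT. With 2 or more UMIs, Irs2 was 0.9996 and Thra 0.400 in the library labelled WT and triglyceride synthesis 0.936 in the library labelled KO. Triglyceride synthesis of the library labelled KO was also 0.986 with at least 5 of 6 adipocyte genes and 0.990 with the same number of them. White adipocyte genes of the library labelled WT were 0.988 with the same number, 0.945 without mitochondrial genes and Malat1 and 0.960 with TMM scaling. Causes of these changes were not tested. Leaving out the pair of the nucleus with most of a gene's counts, chosen after seeing the data, takes counts from the higher side by construction. It ended calls close to the limits of a call in ratio, interval or counts, among them Acadl, Hadha, Me1, Sdha, Thra, Cfd, Slc1a3, Rap2b and Itpr2 in the library labelled WT, Elmod2, Dclk1, Adrb1 and Rxrg in the library labelled KO, and Tob2 and Adcy7 in both.

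The limits are 1 library per genotype of 3 pooled mice, labels and file names that name opposite genotypes, membership that rests on 1 UMI in most nuclei, and RNA of other cell types on both sides of the comparison. Alternatives on muscle markers, on barcodes led by another class, on the same number of adipocyte genes and on nuclei with 10 or more UMIs were chosen after seeing the data. No paired analysis was possible because each genotype has 1 library.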
